A study of Canis lupus familiaris with 51 samples.

Results

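The enzymes of cholesterol synthesis were examined in 51 canine cutaneous mast cell tumors (MCTs). Of 7 enzymes sought by gene name or description on the array, 5 were found, with 10 probes of the 43603 on the array: HMGCS1 with 3 probes, FDFT1 with 1, and SQLE, CYP51A1 and IDI1 with 2 each. CYP51A1 was found by its gene identifier under a locus name, and IDI1 by the description of its probes. LSS and DHCR7 were not analysed here, since no probe with their name or gene identifier was found.

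Each MCT was a piece from the centre of a spontaneous skin tumor of 1 dog, measured on 1 one-color Agilent array, so that a sample holds mast cells together with whatever skin and stroma lay in the piece. The study chose 18 reference samples by histological grade and mitotic index, 13 differentiated (dogs aged 3 to 13 years, 5 males and 8 females) and 5 undifferentiated (5 to 13 years, 3 males and 2 females). The other 33 samples, called unknown, were assigned by the study from marker transcripts on these same arrays, none of them a cholesterol enzyme: 26 were predicted differentiated (4 to 13 years, 7 males and 18 females) and 7 predicted undifferentiated (6 to 14 years, 4 males and 2 females). Among the predicted samples, the age was given for 25 of 26 and 6 of 7 dogs, and so was the sex. The class of an unknown sample is therefore an outcome of the expression data, and the reference comparison is the only one whose classes came from histology. The undifferentiated reference sample LM0 was matched to its class by elimination. Between 59.4% and 74.8% of the spots of an array were well above background, and the arrays were scanned in 9 sessions.

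Cholesterol is built from acetyl groups in a chain of reactions that almost every animal cell can run. HMGCS1 makes HMG-CoA at the entry to the mevalonate pathway, IDI1 interconverts the isoprenoid building blocks, FDFT1 joins farnesyl units into squalene, SQLE adds oxygen to squalene, and CYP51A1 removes a methyl group from lanosterol. The genes share a control circuit in which SREBP transcription factors are released when sterols in the endoplasmic reticulum run low. Skin is itself an active site of lipid synthesis, in the epidermis and in the sebaceous glands.

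What each spot detects depends on its 60-base probe, so the probes on which the results turn are shown, 5′ to 3′. The scanner output gives a position for each but names no genome build, and it does not say whether a probe lies in coding sequence or in a UTR. The following probes are those of SQLE (chr13:26054276-26054335, plus strand) and CYP51A1 (chr14:20694395-20694454, minus strand), the pair of enzymes with the closest levels across tumors, and the probe of IDI1 (chr2:36779161-36779220, plus strand) that is used below.
SQLE, A_11_P084131: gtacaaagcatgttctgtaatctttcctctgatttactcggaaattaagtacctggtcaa
CYP51A1, A_11_P079121: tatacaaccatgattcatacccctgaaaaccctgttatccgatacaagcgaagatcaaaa
IDI1, A_11_P0000030803: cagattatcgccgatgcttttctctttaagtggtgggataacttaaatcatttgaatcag
The second IDI1 probe, A_11_P213378 (chr2:36779601-36779660, plus strand), begins with a stretch of 24 bases rich in C and T, given here in capitals because every base of it falls in a run of 20 bases shared with other probes of the array.
IDI1, A_11_P213378, first 24 bases: TGCCTGTGTCTCTGCCTCTCTCTC
Of the 10 probes, this was the one that shared any 20 bases with another probe, on either strand, and it did so with 5 probes, none of them for IDI1. Its level hardly moved, with a mean of 18.26 ± 0.06 (SD, n = 51) on the log2 scale, and it did not follow the first IDI1 probe (Pearson r = -0.21, permutation p = 0.131, and Spearman rho = -0.14, permutation p = 0.321, n = 51). By contrast, the 3 probes of HMGCS1 correlated at r = 0.99 or above, those of SQLE at 0.97 and those of CYP51A1 at 0.81, each with a permutation p of 1e-05, the smallest that 100000 permutations can give, and an adjusted p of 1.2e-05 over the 6 same-gene pairs. Where 1 probe stands for a gene it is the brightest, which for IDI1 is the repeat-like A_11_P213378. Values are therefore given for both IDI1 probes, and those of A_11_P0000030803 are named as such. The mean of the enzymes also holds the repeat-like probe unless A_11_P0000030803 is named.

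Each enzyme was detected in each tumor by at least 1 probe, and the tumors differed widely. Levels below are log2 of the quantile-normalized signal, so that a difference of 1 is a doubling. By the brightest probe, SQLE, a rate-controlling oxygenase of the late pathway, ranged from 5.89 in T55 to 11.98 in T77, with a mean of 8.93 ± 1.86 (SD, n = 51). HMGCS1 ranged from 10.18 in T55 to 14.61 in T77 (11.70 ± 1.15), CYP51A1 from 9.48 in T113 to 13.42 in T77 (11.19 ± 1.05), FDFT1 from 11.00 in T117.2 to 13.67 in T77 (11.92 ± 0.68) and IDI1 by A_11_P0000030803 from 8.06 in T102 to 10.96 in T82 (9.67 ± 0.73). The predicted undifferentiated tumor T77 had the highest level of 4 of the 5 enzymes. When the 10 tumors with the highest level were listed for each enzyme, with IDI1 by A_11_P0000030803, T77 and the predicted differentiated tumor T122 stood in all 5 lists, 5 further tumors in 4 lists, and 32 of the 51 tumors in none.

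**Figure D1:**
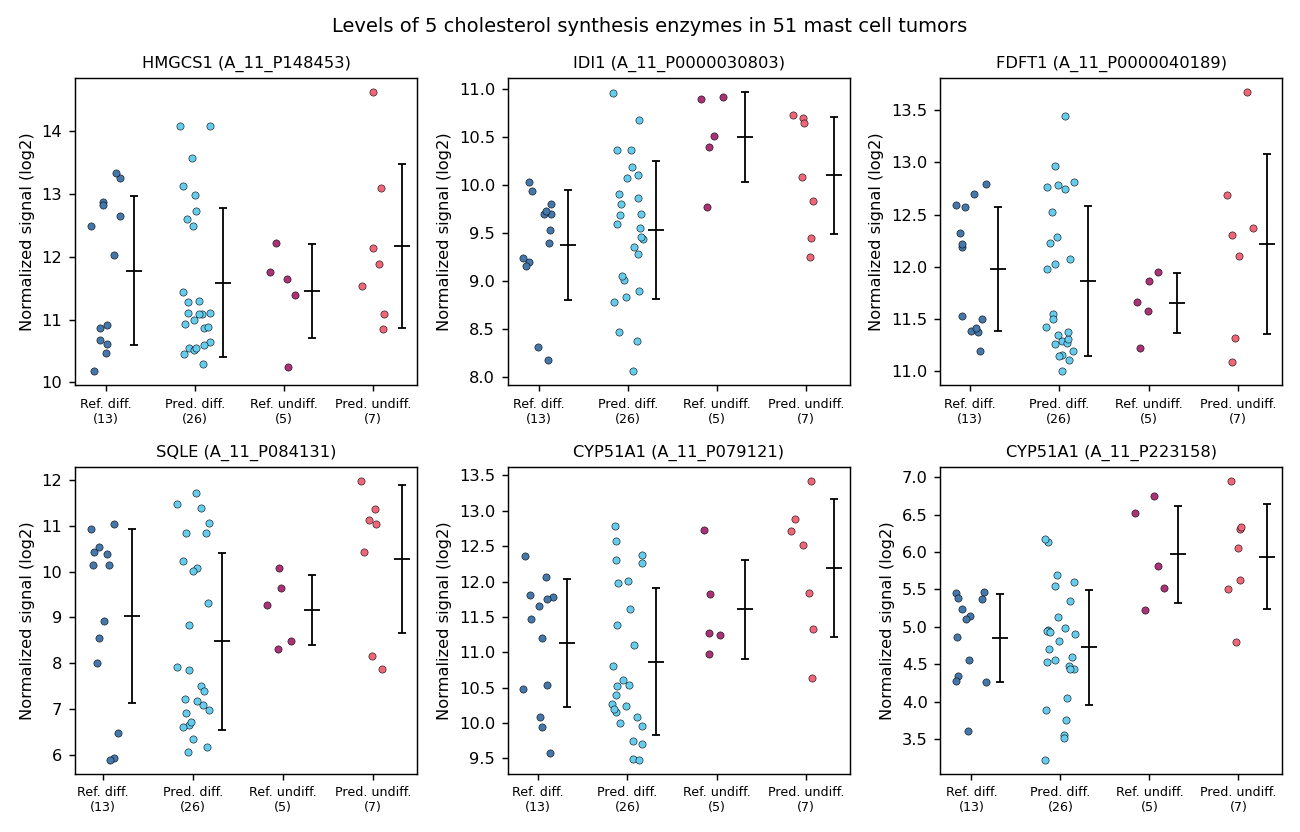
Normalized signal (log2, vertical axis) of 5 cholesterol synthesis enzymes in 51 MCTs, with CYP51A1 shown by both of its probes. Each point is 1 tumor, columns are the reference (ref.) and predicted (pred.) classes with the number of tumors in brackets, and the bar beside each column gives the mean ± SD. IDI1 is shown by A_11_P0000030803. In the reference columns, 4 of the 5 undifferentiated tumors lie above every differentiated one for this IDI1 probe and for the dimmer CYP51A1 probe. For the brighter CYP51A1 probe it is 1 of 5, and for HMGCS1, FDFT1 and SQLE 0 of 5. How many of all probes separate these columns as far was not counted.

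The levels rose and fell together across tumors. Of the 10 pairs of enzymes, the 6 that leave out IDI1 had Pearson r between 0.83 and 0.94 over the 51 tumors, each with a permutation p of 1e-05 and an adjusted p of 1.67e-05 over the 10 pairs. SQLE and CYP51A1, consecutive enzymes but for the cyclization of squalene epoxide between them, were closest (r = 0.94, rho = 0.94, and r = 0.94 without the 2 tumors farthest from the median of SQLE). HMGCS1, at the start of the pathway, followed FDFT1 (r = 0.89, rho = 0.82) and SQLE (r = 0.88, rho = 0.90), and FDFT1 followed SQLE (r = 0.89, rho = 0.86). HMGCS1 and CYP51A1 had r = 0.85 (rho = 0.84), and FDFT1 and CYP51A1 had r = 0.83 (rho = 0.80). Without the 2 tumors farthest from the median of the first gene, these 6 values lay between 0.80 and 0.94.

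IDI1 was looser. By A_11_P0000030803 it had r = 0.56 with CYP51A1 (rho = 0.55, adjusted permutation p = 2.86e-05), 0.52 with SQLE (rho = 0.53, adjusted permutation p = 0.000112), 0.44 with FDFT1 (rho = 0.43, adjusted permutation p = 0.00154) and 0.40 with HMGCS1 (rho = 0.42, adjusted permutation p = 0.00374). Without the 2 farthest tumors these were 0.50, 0.46, 0.41 and 0.33. By the repeat-like probe, r with the other enzymes was below 0 for all 4, from -0.39 for HMGCS1 (adjusted permutation p = 0.00636) to -0.25 for FDFT1 (adjusted permutation p = 0.0728). The median over the 10 pairs was 0.84 with either IDI1 probe.

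The co-variation was present within each class. In the 39 differentiated tumors the 6 pairs without IDI1 had r from 0.88 to 0.95, and in the 12 undifferentiated tumors from 0.78 to 0.93. IDI1 by A_11_P0000030803 had r from 0.44 to 0.56 with the others in the differentiated tumors and from 0.04 to 0.27 in the undifferentiated ones, and that difference was not tested. Centring each enzyme on its scan session left the 6 pairs between 0.85 and 0.95.

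**Figure D2:**
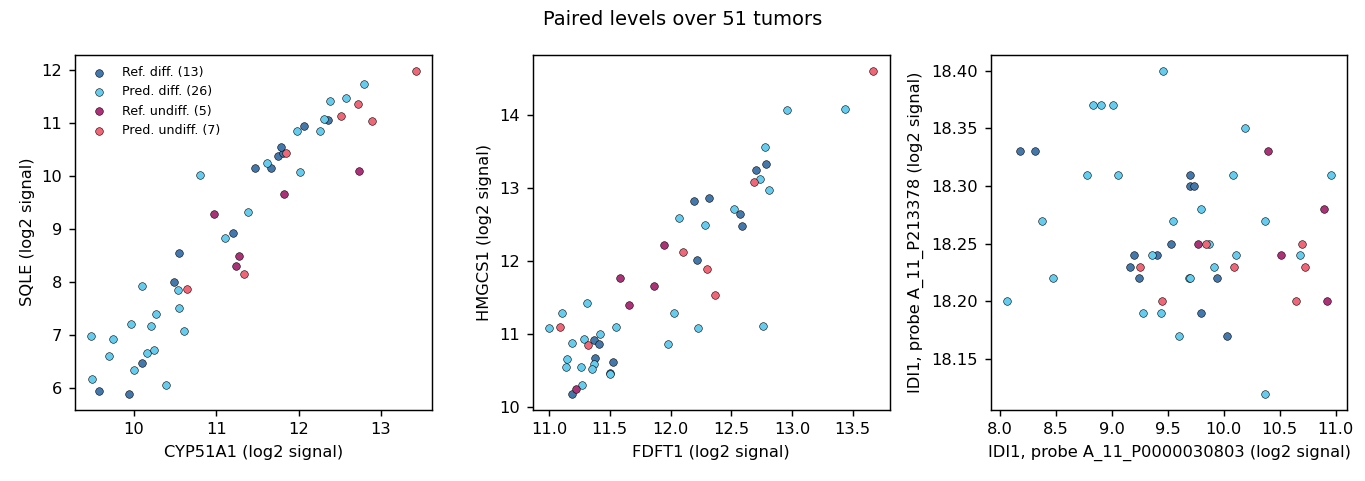
Log2 signal of SQLE (vertical) against CYP51A1 (left), of HMGCS1 (vertical) against FDFT1 (middle) and of the 2 IDI1 probes against each other (right, A_11_P213378 vertical). Each point is 1 of 51 MCTs, colored by class. The left and middle panels rise along a line (r = 0.94 and r = 0.89), whereas the IDI1 probes show no such line (r = -0.21) and the repeat-like probe spans 18.12 to 18.40.

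Markers of keratinocytes, the cells of the epidermis, moved with the enzymes in some of the tumors. Of 8 keratinocyte markers 6 had a probe (KRT1, KRT5, KRT10, DSP, DSG1 and DSG3, keratins and desmosome proteins), and KRT14 and IVL were not analysed here. The mean log2 level of the 6 ranged from 2.77 to 15.43 in undifferentiated and from 2.37 to 15.20 in differentiated tumors. As standardized means, 22 tumors lay below -0.5, 25 above 0.5 and 4 between, and the tumors thus formed a low and a high set. Over all 51 tumors, the keratinocyte mean had r = 0.86 with FDFT1, 0.85 with SQLE, 0.76 with HMGCS1 and 0.74 with CYP51A1. For IDI1 by A_11_P0000030803 it was 0.33. An r over all 51 tumors spans the gap between these sets, and r was therefore taken within each side of 0, as a description.

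In the 26 tumors above 0, the keratinocyte mean had r = 0.77 with SQLE, 0.64 with HMGCS1, 0.63 with CYP51A1, 0.59 with FDFT1 and 0.18 with IDI1 by A_11_P0000030803. In the 25 tumors below 0, the same values lay between -0.20 and 0.05. DSG1, KRT10 and KRT1 were well above background on 29, 30 and 31 of the 51 arrays. The r in the low set thus rests partly on dim marker signal, and cannot show whether the enzymes follow the markers there. With IDI1 by A_11_P0000030803, r of the 10 pairs lay from 0.23 to 0.84 in the low set and from 0.24 to 0.90 in the high set. The lowest values were those of IDI1 with FDFT1 and with HMGCS1. The r of SQLE and CYP51A1 was 0.84 in the low and 0.90 in the high set, that of HMGCS1 and SQLE 0.63 and 0.83, and that of HMGCS1 and FDFT1 0.44 and 0.79, and the median of the 10 pairs was 0.46 and 0.72. Removing the keratinocyte mean by regression over the 51 tumors, an alternative chosen after seeing the data, lowered the median of the 10 pairs from 0.84 to 0.58 and left SQLE and CYP51A1 at 0.88. For 6 sebaceous gland markers no probe was found by name or gene identifier, and they were not analysed here. The mean of 5 mast cell markers, which had a mean log2 level of at least 12.54 in every tumor, had r = -0.46 with the mean of the enzymes, that of 4 macrophage markers -0.33, and those of the T cell, fibroblast and adipocyte markers lay between -0.13 and 0.02. These values carry no test, and the part of each cell type in the enzyme levels was not tested. In bulk tissue, more cells of a type and more RNA per cell cannot be told apart.

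**Figure D3:**
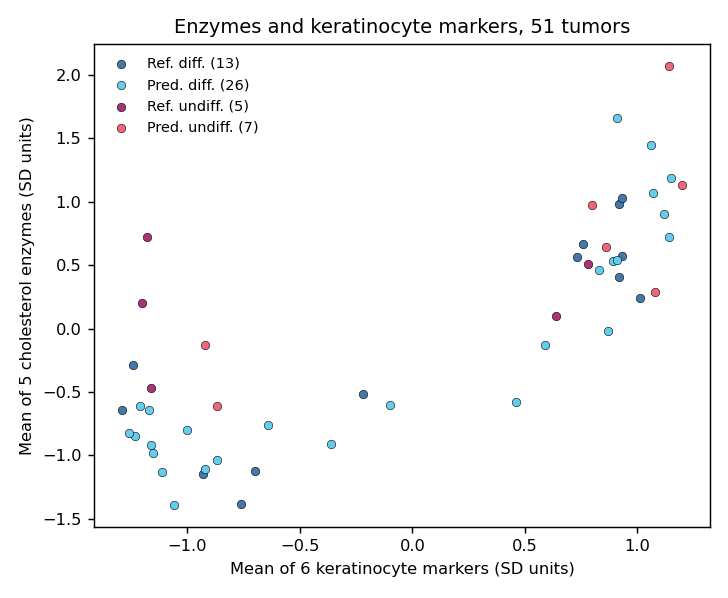
Standardized mean of 6 keratinocyte markers (horizontal axis, SD units) against that of the 5 enzymes with IDI1 by A_11_P0000030803 (vertical axis, SD units). Each point is 1 of 51 MCTs, colored by class. The tumors form a low set of 25 and a high set of 26, and the enzymes rise with the markers in the high set.

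**Figure D4:**
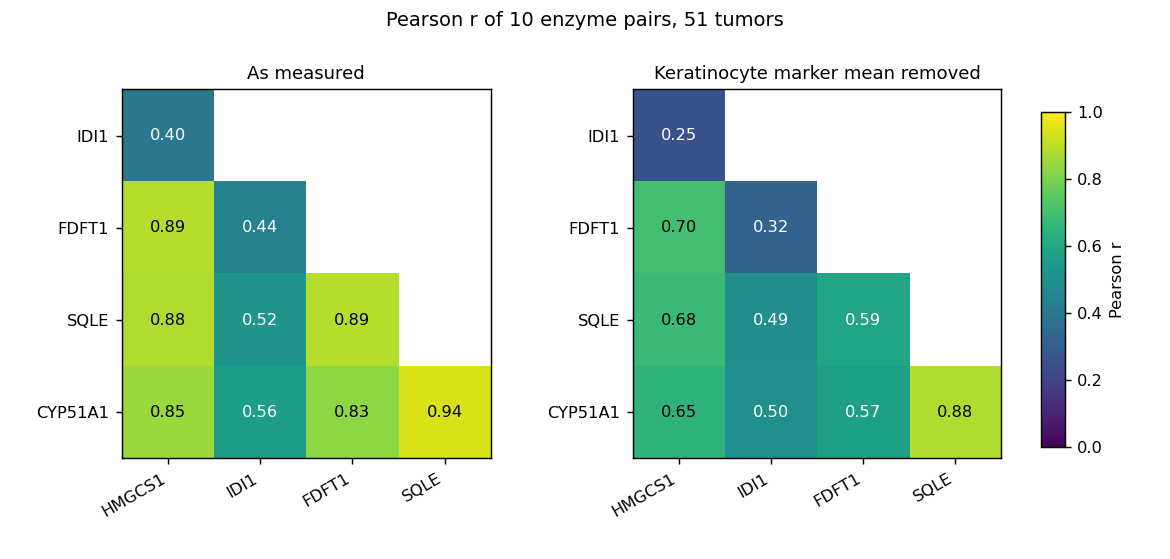
Pearson r over 51 MCTs for the 10 pairs of enzymes, with IDI1 by A_11_P0000030803, as measured (left) and after the keratinocyte marker mean was removed by regression (right). The color scale runs from 0 to 1. SQLE and CYP51A1 stay at 0.88 on the right, and the median of the 10 pairs falls from 0.84 to 0.58.

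The comparison of the classes asked whether tumors with high grade and mitotic index differ in these enzymes. In the reference samples, 0 of the 5 enzymes was called by its brightest probe with limits of 0.01 on the adjusted p and 2 on the fold, where 1.85% of all probes were called (limma with Benjamini-Hochberg adjustment over 43603 probes). None of the 5 had an unadjusted p under 0.05 by its brightest probe, which 23.5% of all probes had. Among the 10 probes, 2 had an adjusted p under 0.05, a limit passed by 8.09% of all probes, and both were higher in undifferentiated tumors: IDI1 by A_11_P0000030803 and CYP51A1 by A_11_P223158.

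IDI1 by A_11_P0000030803 was at 10.92 in T9.1, 10.90 in T90, 10.51 in T73, 10.40 in LM0 and 9.77 in T57.1, against a lowest level of 8.18, a median of 9.53 and a highest of 10.03 in the 13 differentiated reference samples. Thus 4 of the 5 undifferentiated tumors exceeded every differentiated one, and how many of all probes separate as far was not counted. The log2 difference was 1.13 (standard error 0.28, limma adjusted p = 0.02), a fold of 2.18. With scan session as a block it was 1.35 (limma adjusted p = 0.0587), and with sex and age as covariates the limma adjusted p was 0.0578. CYP51A1 by its dimmer probe A_11_P223158 was at 6.75 in T9.1, 6.52 in LM0, 5.82 in T90, 5.52 in T57.1 and 5.23 in T73, against 3.60, 5.10 and 5.46 as lowest, median and highest of the differentiated samples. Again 4 of 5 were above every differentiated sample, with a log2 difference of 1.12 (standard error 0.308, limma adjusted p = 0.033). Normexp background correction gave 0.34 (limma adjusted p = 0.0346). It adds an offset of 50 to each signal, which by itself shrinks the log2 difference of a probe this dim. Scan session as a block gave 1.09 (limma adjusted p = 0.155). That probe was well above background in 5 of 5 undifferentiated and 11 of 13 differentiated reference samples. The brighter CYP51A1 probe, at 12.73, 11.82, 11.27, 11.24 and 10.97 in the undifferentiated tumors and at 9.57, 11.47 and 12.36 as lowest, median and highest in the differentiated ones, gave a log2 difference of 0.47 (95% interval from -0.43 to 1.38, limma adjusted p = 0.547), and its groups overlapped.

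HMGCS1, FDFT1 and SQLE did not pass in the reference samples. HMGCS1 by its brightest probe had a log2 difference of -0.33 (95% interval from -1.47 to 0.82), FDFT1 -0.33 (from -0.90 to 0.24) and SQLE 0.13 (from -1.65 to 1.91). For SQLE, the undifferentiated tumors lay at 10.08 in LM0, 9.65 in T90, 9.28 in T73, 8.48 in T57.1 and 8.30 in T9.1, within a differentiated range of 5.89 to 11.05 with a median of 10.14. Keratinocyte markers were above their mean in 2 of the 5 undifferentiated and 7 of the 13 differentiated reference samples, and the median difference of the 6 markers was -2.27 on the log2 scale, none of them called. With the keratinocyte mean as a covariate, the difference of IDI1 by A_11_P0000030803 was 1.26 and reached an adjusted p of 0.00814 by limma, and that of HMGCS1 changed sign to 0.09.

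In the unknown samples, 7 predicted undifferentiated against 26 predicted differentiated, 0 of 5 enzymes was called by its brightest probe, where 1% of all probes were called (0.741% higher and 0.261% lower). At an unadjusted p under 0.05, which 19.4% of all probes reached, stood 2 of the 5, SQLE and CYP51A1. SQLE lay at 7.87, 11.04 and 11.98 as lowest, median and highest of the undifferentiated and at 6.05, 7.68 and 11.73 of the differentiated samples, a log2 difference of 1.80 (standard error 0.776, limma adjusted p = 0.18), and all 7 undifferentiated samples were above the differentiated median. CYP51A1 by its brighter probe lay at 10.64, 12.51 and 13.42 against 9.48, 10.54 and 12.79, a log2 difference of 1.32 (standard error 0.427, limma adjusted p = 0.0607), and by A_11_P223158 the difference was 1.22 (standard error 0.315, limma adjusted p = 0.0173, a limit of 0.05 being passed by 5.84% of all probes). The latter was 0.80 with scan session as a block (limma adjusted p = 0.295). With normexp background correction, whose offset shrinks it, it was 0.33 (limma adjusted p = 0.0135). HMGCS1 differed by 0.59 (95% interval from -0.43 to 1.60), FDFT1 by 0.35 (from -0.28 to 0.99) and IDI1 by A_11_P0000030803 by 0.57 (from -0.03 to 1.16). Here keratinocyte markers were above their mean in 5 of 7 undifferentiated and 12 of 26 differentiated samples, with a median difference of 2.64, none called. With their mean as a covariate, the difference of SQLE was 0.81 (limma adjusted p = 0.106) and that of HMGCS1 0.07 (limma adjusted p = 0.954). That of CYP51A1 by its brighter probe was 0.82 (limma adjusted p = 0.0244), and that of IDI1 by A_11_P0000030803 was 0.42 (limma adjusted p = 0.496).

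HMGCS1 and FDFT1 thus had differences below 0 in the reference and above 0 in the unknown samples. The test of the difference between the 2 class effects passed for none of the 10 probes (limma, lowest adjusted p = 0.496, for FDFT1), where it passed for 4 of all 43603 probes at an adjusted p under 0.01.

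Over the 51 tumors, 12 undifferentiated against 39 differentiated, 0 of 5 enzymes was called by its brightest probe, where 2.41% of all probes were called, and 1 of 5, CYP51A1, had an unadjusted p under 0.05, as had 26.2% of all probes. CYP51A1 by A_11_P223158 was called higher in undifferentiated tumors, as were 1.32% of all probes. It lay at 4.79, 5.94 and 6.95 as lowest, median and highest of the 12 undifferentiated tumors and at 3.22, 4.86 and 6.17 of the 39 differentiated ones, and 11 of the 12 exceeded the differentiated median. The log2 difference was 1.18 (standard error 0.226, limma adjusted p = 0.000152), a fold of 2.27. The brighter CYP51A1 probe lay at 10.64, 11.83 and 13.42 against 9.48, 10.61 and 12.79, with all 12 undifferentiated tumors above the differentiated median. Its log2 difference of 0.99 (standard error 0.315, limma adjusted p = 0.0246) missed both limits. IDI1 by A_11_P0000030803 differed by 0.79 (standard error 0.212, limma adjusted p = 0.00727), a fold of 1.72 and so under the fold limit. SQLE differed by 1.15 (95% interval from -0.03 to 2.33), HMGCS1 by 0.22 (from -0.53 to 0.98) and FDFT1 by 0.08 (from -0.37 to 0.53). With the keratinocyte mean as a covariate, the brighter CYP51A1 probe differed by 0.89 (limma adjusted p = 0.000915), under the fold limit. SQLE then differed by 0.95 (limma adjusted p = 0.0224) and HMGCS1 by 0.11 (limma adjusted p = 0.844). With normexp background correction, the difference of CYP51A1 by A_11_P223158 was 0.33 (limma adjusted p = 9.1e-05) and under the fold limit. The offset of that correction shrinks differences at dim signal, so this value cannot show whether the fold limit holds. With scan session as a block, the difference of CYP51A1 by A_11_P223158 was 1.07 (limma adjusted p = 0.00278). That of IDI1 by A_11_P0000030803 was then 0.68 (limma adjusted p = 0.0412).

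Proliferation genes, which are higher in the undifferentiated class, were set beside the enzymes. The reference classes rest partly on mitotic index, and the study describes most of its marker transcripts as regulated in mitosis. Calls of proliferation genes thus follow from how the classes were made and are no separate result. Of 6 listed, 4 had a probe, and all 4 were called in each comparison, where 1% to 2.41% of all probes were called. Their mean had r = 0.52 with IDI1 by A_11_P0000030803, 0.50 with CYP51A1, 0.38 with SQLE, 0.20 with HMGCS1 and 0.14 with FDFT1 over the 51 tumors. These values span the 2 classes, which differ in the proliferation genes. Within the differentiated tumors, the 4 genes had r from 0.20 to 0.52 with the mean of the enzymes. Within the undifferentiated ones, it was from -0.47 to -0.23. The part of proliferation in the class differences was not tested. Sex and age called no enzyme by limma. Between males and females, 0 of 10 probes was called, where 0.0275% of all probes were, and 0.0642% had an adjusted p under 0.05. With age, 0 of 10 probes and 0% of all probes were called. An unadjusted p under 0.05 was had by 4.38% of all probes with sex and 2.26% with age, and by 0 of the 10 with either.

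**Figure D5:**
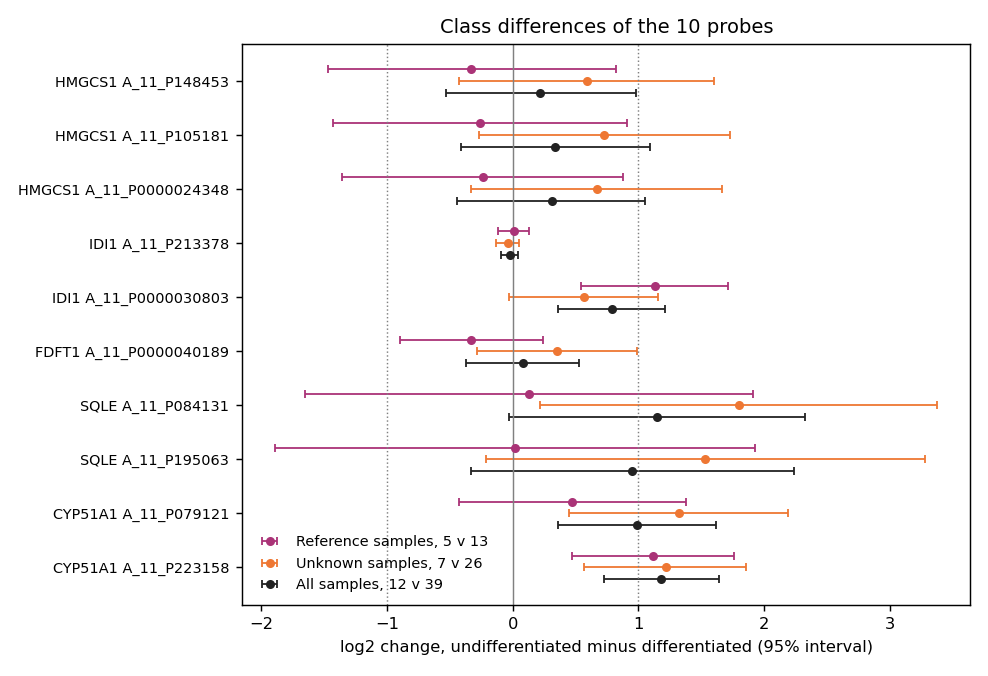
Log2 difference between undifferentiated and differentiated MCTs (horizontal axis) for the 10 probes, with 95% intervals by limma, in the reference samples (5 v 13), the unknown samples (7 v 26) and all samples (12 v 39). Dotted lines mark a fold of 2. Both CYP51A1 probes lie right of 0 in all 3 comparisons, and HMGCS1 and FDFT1 lie left of 0 in the reference and right of it in the unknown samples.

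The other enzymes of the pathway were compared in the same way. Of 15 listed, 14 had a probe, and 0 was called in any of the 3 class comparisons, where 1.85% (reference), 1% (unknown) and 2.41% (51 tumors) of all probes were called, so that 0 of 14 is near the background and says nothing particular of the list. Their median log2 difference was -0.14 in the reference samples, 0.41 in the unknown samples and 0.13 over the 51 tumors, where the medians of all probes were 0.04, -0.04 and -0.01. In the reference samples, 1 of the 14 was higher and 1 lower at an adjusted p under 0.05, as were 8.09% of all probes in either direction. These were LBR (1.05, limma adjusted p = 0.0231) and PMVK (-0.65, limma adjusted p = 0.00541, under the fold limit). NSDHL, a sterol dehydrogenase, had a difference of 0.54 over the 51 tumors (standard error 0.236, limma adjusted p = 0.124) and was well above background on 33 of 51 arrays.

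The mean of the 5 enzymes was taken by their brightest probes, the repeat-like IDI1 probe included. Against it, 11 of the 14 had r above 0.5 over the 51 tumors, where 5.72% of all other probes did. The median r was 0.76, and that of all other probes -0.12. By the same measure, which spans the low and the high set of tumors, all 6 keratinocyte markers had r above 0.5, with a median of 0.82, so that a high r was not particular to the pathway. FDPS, which makes farnesyl diphosphate, was the closest of all genes with a symbol (r = 0.92). MSMO1, which removes methyl groups after CYP51A1, had r = 0.87. Below 0.5 were MVD (0.42), GGPS1 (-0.20), which draws farnesyl diphosphate off to protein prenylation, and LBR (-0.38), a nuclear envelope protein with sterol reductase activity. With IDI1 by A_11_P0000030803, the median r of the 14 was 0.78, and PMVK went from 0.52 to 0.45.

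Among the 8 genes most like the mean of the enzymes were FDPS, TM7SF2 (r = 0.89), PPP1R14C (0.88), EBP (0.88), MBOAT2 (0.88), MPIG6B (0.88) and RHBG (0.87), of which FDPS, TM7SF2 and EBP are enzymes of the pathway. TM7SF2 reduces a double bond of the sterol ring, EBP shifts one, PPP1R14C inhibits protein phosphatase 1, MBOAT2 transfers fatty acyl chains to phospholipids and RHBG carries ammonium. When IDI1 was taken by A_11_P0000030803, the 8 included FDPS (0.92), EBP (0.91), HSD17B12 (0.90), GPR157 (0.90), TM7SF2 (0.90) and ACAT2 (0.89), and 4 genes were shared between both sets of 8. HSD17B12 acts in the elongation of very long fatty acids, and ACAT2 makes acetoacetyl-CoA. These are correlations over 51 samples of the same arrays and carry no test. PPP1R14C and MPIG6B had low signal, at a mean log2 level of 4.9 and 4.68. Like MBOAT2 and RHBG, they were not among the 8 with IDI1 by A_11_P0000030803.

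Genes of sterol sensing and transport were more mixed. The transcripts of the SREBP factors themselves, SREBF1 and SREBF2, had r of -0.06 and 0.18 with the mean of the enzymes, and INSIG1, which holds SREBP back and is itself a target of it, had 0.76. SCARB1, a lipoprotein receptor, had 0.79 and SOAT1, which esterifies cholesterol for storage, 0.62. The cholesterol exporters ABCA1 and ABCG1 had -0.45 and -0.60. The median r was -0.15 over the 10 regulation genes and -0.19 over the 11 genes of uptake, storage and efflux.

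Among these 2 lists, 1 regulation gene of 10 was called, lower over the 51 tumors and in the unknown samples. MYLIP, a ubiquitin ligase that removes the LDL receptor, fell by 1.41 on the log2 scale over the 51 tumors (standard error 0.222, limma adjusted p = 6.69e-06), where 1.09% of all probes were called lower, and in the reference samples its difference was -1.64 (limma adjusted p = 0.0127). MBTPS1, a protease that activates SREBP, had -0.44 (standard error 0.0954, limma adjusted p = 0.000757), under the fold limit. Of the 11 transport genes, CH25H, which makes 25-hydroxycholesterol, was called higher over the 51 tumors by 1.86 (standard error 0.382, limma adjusted p = 0.000423), as were 1.32% of all probes. APOE, a lipoprotein component, was called lower by 1.14 (standard error 0.269, limma adjusted p = 0.00203), as were 1.09%. Neither was called in the reference samples (limma adjusted p = 0.0142 for CH25H and 0.0412 for APOE) or in the unknown samples (0.0302 and 0.0995). LIPA, the lysosomal acid lipase, was called in the reference samples, where its level was 9.34 ± 0.32 (SD) in the 5 undifferentiated and 10.77 ± 0.43 (SD) in the 13 differentiated tumors. It fell by 1.43 on the log2 scale (standard error 0.211, limma adjusted p = 0.000544), as did 0.871% of all probes. In the unknown samples its difference was -0.15 (limma adjusted p = 0.779).

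Among the markers of other cell types, only macrophage markers were called, and not in the same direction. Of 4 macrophage markers, CSF1R was called lower in the undifferentiated reference samples (-1.92, standard error 0.394, limma adjusted p = 0.00628), and CD14 was called higher over the 51 tumors (1.28, limma adjusted p = 0.000146) and in the unknown samples (1.70, limma adjusted p = 0.000341). In the reference samples CD14 had a difference of 0.67 (limma adjusted p = 0.334). CD68 and CD163 were not called in any comparison. The 5 fibroblast markers had differences from -1.04 to -0.61 in the reference samples, none called, with an adjusted p of 0.0336 by limma for DCN, and from -0.27 to 0.36 in the unknown samples. The 5 mast cell markers had a median difference of -0.04 in the reference samples, -0.73 in the unknown samples and -0.51 over the 51 tumors, none called. The part of these cell types in the differences of the enzymes, of LIPA and of the other sterol genes was not tested.

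Fatty acid synthesis, which SREBP factors also drive, was measured by 9 genes of 9, and 0 was called in any comparison, a share near the 1% to 2.41% of all probes called. The largest differences over the 51 tumors were -0.82 for GPAM (standard error 0.245, limma adjusted p = 0.0163), which starts triglyceride synthesis, and -0.59 for ACACA (standard error 0.297, limma adjusted p = 0.193), the acetyl-CoA carboxylase. With the mean of the cholesterol enzymes, 5 of the 9 had r above 0.5, led by FASN, the fatty acid synthase, at 0.77, while FADS2 had -0.29 and ACSS2 -0.37.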

How the data were processed

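RNA of 51 MCTs was labeled with 1 dye and hybridized, 1 tumor per array. The deposited files are the output of Agilent's Feature Extraction software, in which the authors obtained an intensity for each spot with the background subtracted. A second deposited table holds the authors' intensities, quantile-normalized over the 51 arrays. Here log2 of the processed signal was quantile-normalized, spots called outliers by the software were set to missing, and spots of a probe were averaged. Groups were compared with limma 3.58.1 in R 4.3.3, with Benjamini-Hochberg adjustment over 43603 probes, with limits of 0.01 on the adjusted p and 2 on the fold for a call. The number of arrays limits the precision. As the tumors are single samples of different dogs, p-values measure the spread between tumors.

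Correlations were computed in Python 3.11.15 with numpy 2.4.6 and scipy 1.17.1, with 100000 permutations, and figures with matplotlib 3.10.9. The members and gene lists were chosen with earlier results of these data known. The genes named are all probes of the enzymes, of the 4 related lists those called in the reference or the 51-tumor comparison plus the 2 per list with the largest change over the 51 tumors, and the 8 genes most like the enzymes' mean, of which some are not reported here. Other genes of these lists named for their r, and LBR and PMVK, were chosen after their values were seen. The classes are those of the study. LSS and DHCR7 were planned and not analysed, which left 10 of the planned pairs. In data simulated for the reference comparison, limma called 74 of 100 probes changed by 2 and 97 of 100 changed by 3 on the log2 scale, and 2 unchanged probes of 43502 in all. Smaller changes, such as those of the enzymes, were not simulated, so how often limma would call them is not known. No paired analysis was possible because each tumor is a different case. Alternatives were other normalizations and background correction, the authors' table, a filter on dim probes (at least 5 arrays well above background), outlier spots kept, slide or scan session as a block, sex and age, the methods' t-test, the threshold, the choice of probe and leaving out samples. The second IDI1 probe and the keratinocyte covariate were chosen after seeing the data.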

Additional observations from a re-analysis of the deposited data

How the results depend on the processing

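No paired analysis was possible because each tumor is a different case. The count of enzymes called by the brightest probe was 0 in the 3 class comparisons and stayed 0 under the alternatives run, leaving out each reference sample included (0 to 0), except over the 51 tumors, where it was 1 (CYP51A1) at an adjusted p under 0.05 with no limit on the fold and 1 (CYP51A1) when any probe counted. Leaving out T57.1 brought IDI1 by A_11_P0000030803 past both limits in the reference samples (1.31, limma adjusted p = 0.00877), and leaving out each sample gave 1.02 to 1.31, with adjusted p from 0.00877 to 0.0569. For CYP51A1 by A_11_P223158 these were 0.92 to 1.30 and 0.0218 to 0.0992. The median pairwise r lay between 0.58 and 0.89 under its alternatives. Of the 8 genes most like the mean of the enzymes, 5 were shared after centring on scan session, 6 after centring on class and 4 with the other IDI1 probe.

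The sign of some small differences in the reference samples turned, and the cause was not tested. With the keratinocyte covariate the 3 probes of HMGCS1 had 0.09, 0.17 and 0.18. HMGCS1 by A_11_P0000024348 had -0.42 to 0.05 when samples were left out. IDI1 by A_11_P213378 had -0.01 with scaling to the 75th percentile or a scan session block, -0.02 with normexp, 0.00 with the keratinocyte covariate and -0.01 to 0.02 when samples were left out. SQLE by A_11_P084131 had -0.02 with normexp and -0.13 to 0.34 when samples were left out. SQLE by A_11_P195063 had -0.09 with scaling to the 75th percentile, -0.11 with normexp, -0.58 in the authors' table and -0.35 to 0.38 when samples were left out. FDFT1 with a scan session block had 0.00 over the 51 tumors and -0.02 in the unknown samples, and -0.02 there with the keratinocyte covariate. Dim signal limits the second probes of CYP51A1 and SQLE, well above background on 41 and 31 of 51 arrays. The offset of normexp shrinks their log2 differences.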
